A study of Drosophila melanogaster with 30 samples.

Results

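The peptidoglycan recognition proteins (PGRPs) are the proteins with which flies detect and degrade bacterial cell wall peptidoglycan. The 9 genes described here are *PGRP-SA*, *PGRP-SD*, *PGRP-SB1*, *PGRP-SC2*, *PGRP-LA*, *PGRP-LB*, *PGRP-LC*, *PGRP-LE* and *PGRP-LF*. They were taken by symbol from the count files, which hold 13 genes with a PGRP- symbol among 17471 genes. All 9 reached the expression filter, which asked for at least 1 CPM (CPM is the usual scaling of a gene's read count to the total count of its library) in at least 15 of the 30 libraries. Of these, 8 were at or over 1 CPM in 30 of 30 libraries, and *PGRP-SC2* was in 17.

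RNA was sequenced from whole heads of *Drosophila melanogaster* females aged 3 to 7 days, in pools of 100 heads. All populations descended from an outbred intercross of 40 DGRP lines. BUT+ lines had been selected for attraction to 2,3-butanedione and BUT- lines for repulsion by it, CYC+ lines for attraction to cyclohexanone and CYC- lines for repulsion by it, each for 30 generations, and control lines were unselected. Each of the 5 treatments had 3 replicate lines and each line gave 2 samples, so that there were 30 libraries, 6 per treatment. Variation between single flies was pooled away.

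Libraries held between 21194086 and 38621924 counted reads (median 29967406). Head markers were present in every library, with 24670 to 38310 CPM of *ninaE* (the major rhodopsin of photoreceptors), 87.3 to 152 CPM of *elav* (neurons), 58.9 to 74.8 CPM of *repo* (glia) and 69.1 to 96.0 CPM of *Orco* (olfactory neurons). Fat body RNA was abundant, since the 7 fat body markers summed to between 20520 and 107400 CPM. The 6 hemocyte markers summed to between 478 and 821 CPM and the 5 ovary markers to at most 9.87 CPM. The sum of the 11 midgut markers varied widely between libraries, from 7.94 to 344 CPM (median 57.8). Of 4 listed male markers 2 were found in the count files, and 1 of these had 0 reads in every library. Their sum, which thus rests on 1 gene, stayed at or under 0.149 CPM. The 2 samples of a line, numbered 1 and 2 in the labels, differed in many genes. Between second and first samples 25.8% of the 9240 tested genes were called. The study states that samples were collected in randomized order within 5 days. The sources do not say what the number stands for beyond separate collections, nor do they tie it to days. In whole heads, fewer cells of a type and less RNA per cell cannot be told apart.

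As background, bacterial peptidoglycan reaches 2 pathways in the fly. Peptidoglycan of the lysine type leads through secreted recognition proteins to the Toll pathway, and peptidoglycan of the diaminopimelic acid (DAP) type is bound by receptors that start the Imd pathway, whose transcription factor is *Rel*. Both pathways switch on antimicrobial peptide genes, with the fat body as a main site. Amidase members cut peptidoglycan and so remove the ligand, and other members hold the receptor down. In the fly nervous system, sensing of peptidoglycan by neurons has been tied to behavior, and *PGRP-LB* acts there too.

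The members fell into 4 classes by textbook function. The secreted recognition class held *PGRP-SA*, which binds lysine-type peptidoglycan upstream of Toll, and *PGRP-SD*, which helps recognition in both pathways. The amidase class held *PGRP-SB1*, *PGRP-SC2* and *PGRP-LB*, which degrade peptidoglycan. The membrane class held *PGRP-LC*, the main surface receptor of the Imd pathway, *PGRP-LF*, which lacks peptidoglycan binding and restrains *PGRP-LC* signaling, and *PGRP-LA*, which is thought to modulate the pathway in epithelia. *PGRP-LE*, the intracellular receptor of the Imd pathway, stood alone.

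On the release 6 genome, the 3 membrane genes lay side by side on the plus strand of chromosome 3L. *PGRP-LA* (FBgn0035975) covers chr3L:9334332-9338336 and ends 473 bases before *PGRP-LC* (FBgn0035976, chr3L:9338810-9348336). *PGRP-LF* (FBgn0035977, chr3L:9349609-9351489) starts 1272 bases after *PGRP-LC*. *PGRP-LC* has 10 annotated transcripts, which gene-level counts cannot separate. In *PGRP-LF*, 602 of 1355 exon bases overlap *UGP* on the other strand, and the sources used here do not say whether reads were counted by strand, so its values may include *UGP* reads.

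The other members were scattered. *PGRP-SD* (FBgn0035806, chr3L:7651180-7651900) is a single exon that shares 35 bases with *CG7492* on the other strand. *PGRP-SB1* (FBgn0043578, chr3L:16727299-16727989) lies on the minus strand, 10 bases from the end of its paralog *PGRP-SB2*. *PGRP-SA* (FBgn0030310, chrX:11561643-11562779) and *PGRP-LE* (FBgn0030695, chrX:15801153-15803880) are on the X chromosome. *PGRP-LB* (FBgn0037906, chr3R:11452849-11460552) has 6 annotated transcripts, and *PGRP-SC2* (FBgn0043575, chr2R:8716950-8717695) begins 1855 bases after *PGRP-SC1b*. Reads shared between such close paralogs could have been split or dropped in counting, which makes *PGRP-SC2* and *PGRP-SB1* the less certain members.

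Per kilobase of merged exons, *PGRP-SB1* was the most abundant member and *PGRP-SC2* the least. *PGRP-SB1* averaged 83.6 TMM-normalized CPM per kb over all lines, with line means from 40.9 to 120 CPM per kb. *PGRP-SD* followed at 26.3 CPM per kb (line means 13.6 to 44.4) and *PGRP-LA* at 23.7 CPM per kb (20.2 to 28.1). Within lines, *PGRP-SB1* was above *PGRP-SD* in 15 of 15, although their ranges over lines overlapped. *PGRP-SD* was above *PGRP-LA* in 9 of 15 lines, so that these neighbors in the order are not separated by the spread between lines.

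*PGRP-LC* averaged 15.5 CPM per kb (line means 14.2 to 17.2) and *PGRP-SA* 12.2 CPM per kb (8.40 to 15.3). *PGRP-LE* and *PGRP-LB* were nearly level at 7.33 and 7.32 CPM per kb, *PGRP-LF* averaged 5.53 CPM per kb and *PGRP-SC2* 2.92 CPM per kb (line means 0.435 to 6.83). The ranges of line means were apart at 2 steps of this order, between *PGRP-LA* and *PGRP-LC* and between *PGRP-SA* and *PGRP-LE*. Within lines, *PGRP-LC* was also above *PGRP-SA* and *PGRP-LB* above *PGRP-LF* in 15 of 15, *PGRP-LF* above *PGRP-SC2* in 13 and *PGRP-LE* above *PGRP-LB* in 10. The median tested gene averaged 12.1 CPM per kb, so *PGRP-SB1* stood above 91.4% of the tested genes that had an exon length and *PGRP-SC2* above 14.7% of them.

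**Figure D1:**
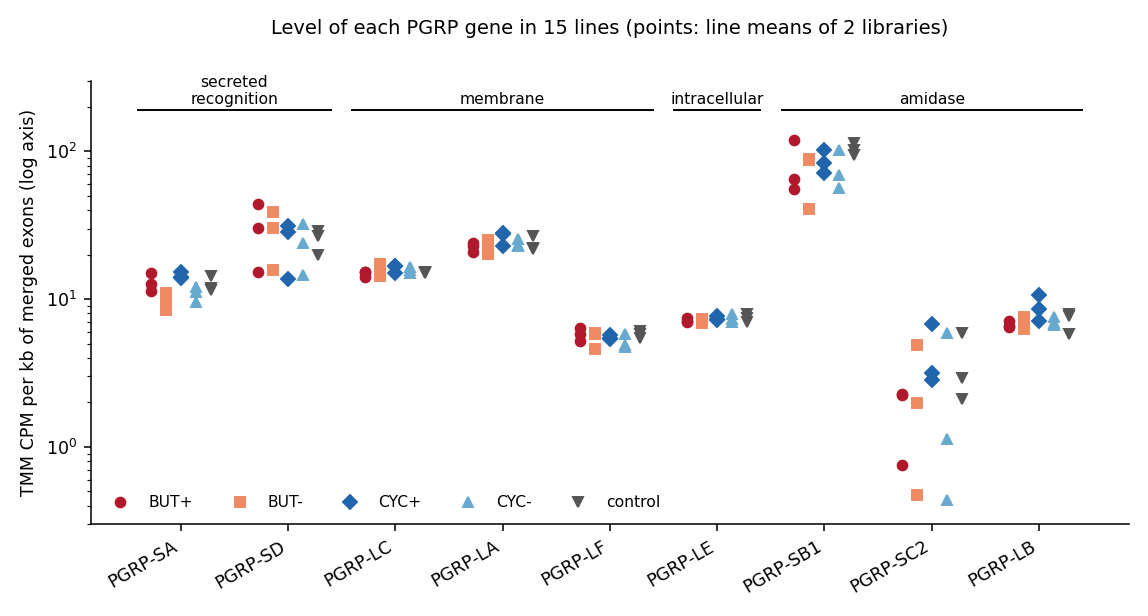
Mean TMM CPM per kb of merged exons of the 9 PGRP genes in each of the 15 lines (points, mean of 2 libraries; log axis), grouped by class and by treatment from BUT+ at the left to control at the right. *PGRP-SB1* is highest with line means from 40.9 to 120 CPM per kb, and *PGRP-SC2* is lowest and most spread, from 0.435 to 6.83 CPM per kb.

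The amidases summed to the highest level of the classes. Their summed level per kb averaged 88.4 ± 35.0 in BUT+, 81.7 ± 29.1 in BUT-, 98.9 ± 13.4 in CYC+, 85.7 ± 26.3 in CYC- and 115 ± 10.8 CPM per kb in control lines (SD, n = 3 lines each). The membrane class summed to treatment means between 43.0 and 47.9 CPM per kb and the secreted recognition class to means between 34.6 and 43.0 CPM per kb. *PGRP-LE* alone had treatment means between 7.14 and 7.47 CPM per kb. The amidase sum rested mainly on *PGRP-SB1*, whose treatment means ran from 72.4 to 104 CPM per kb. The line sums overlapped between every pair of treatments in the secreted recognition and membrane classes. Among the amidases they were apart for 1 pair that was compared, BUT- (48.2 to 99.3 CPM per kb) and control (103 to 124 CPM per kb). In that comparison 16.3% of single tested genes also had separated line means, and no amidase gene was called.

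How far a member varied between libraries went with its class only in part. From the lowest to the highest library, the level spanned 77.1-fold for *PGRP-SC2*, 7.84-fold for *PGRP-SB1*, 5.96-fold for *PGRP-SD* and 2.78-fold for *PGRP-SA*. The span was 2.00-fold for *PGRP-LB*, 1.97-fold for *PGRP-LF*, 1.58-fold for *PGRP-LC*, 1.52-fold for *PGRP-LA* and 1.28-fold for *PGRP-LE*. The short secreted members thus spread most and the intracellular receptor least. *PGRP-SC2* rested on few reads, with 3 to 278 reads per library, whereas *PGRP-LE* had 281 to 623.

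The spread was split into libraries of a line, lines of a treatment and treatments, with means of 2 and of 6 libraries for the last 2, which vary less through averaging alone. On the log2 scale, the SD between the 2 libraries of a line was 1.25 for *PGRP-SC2*, 0.79 for *PGRP-SB1*, 0.65 for *PGRP-SD* and 0.44 for *PGRP-SA*. The SD between line means of a treatment was 0.89, 0.50, 0.62 and 0.16, and that between the 5 treatment means 0.37, 0.21, 0.18 and 0.19, in the same order of genes. For *PGRP-LB* and *PGRP-LA* the SD between line means was the largest, at 0.18 and 0.14, beside 0.13 and 0.08 within lines and 0.14 and 0.09 between treatment means.

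**Figure D2:**
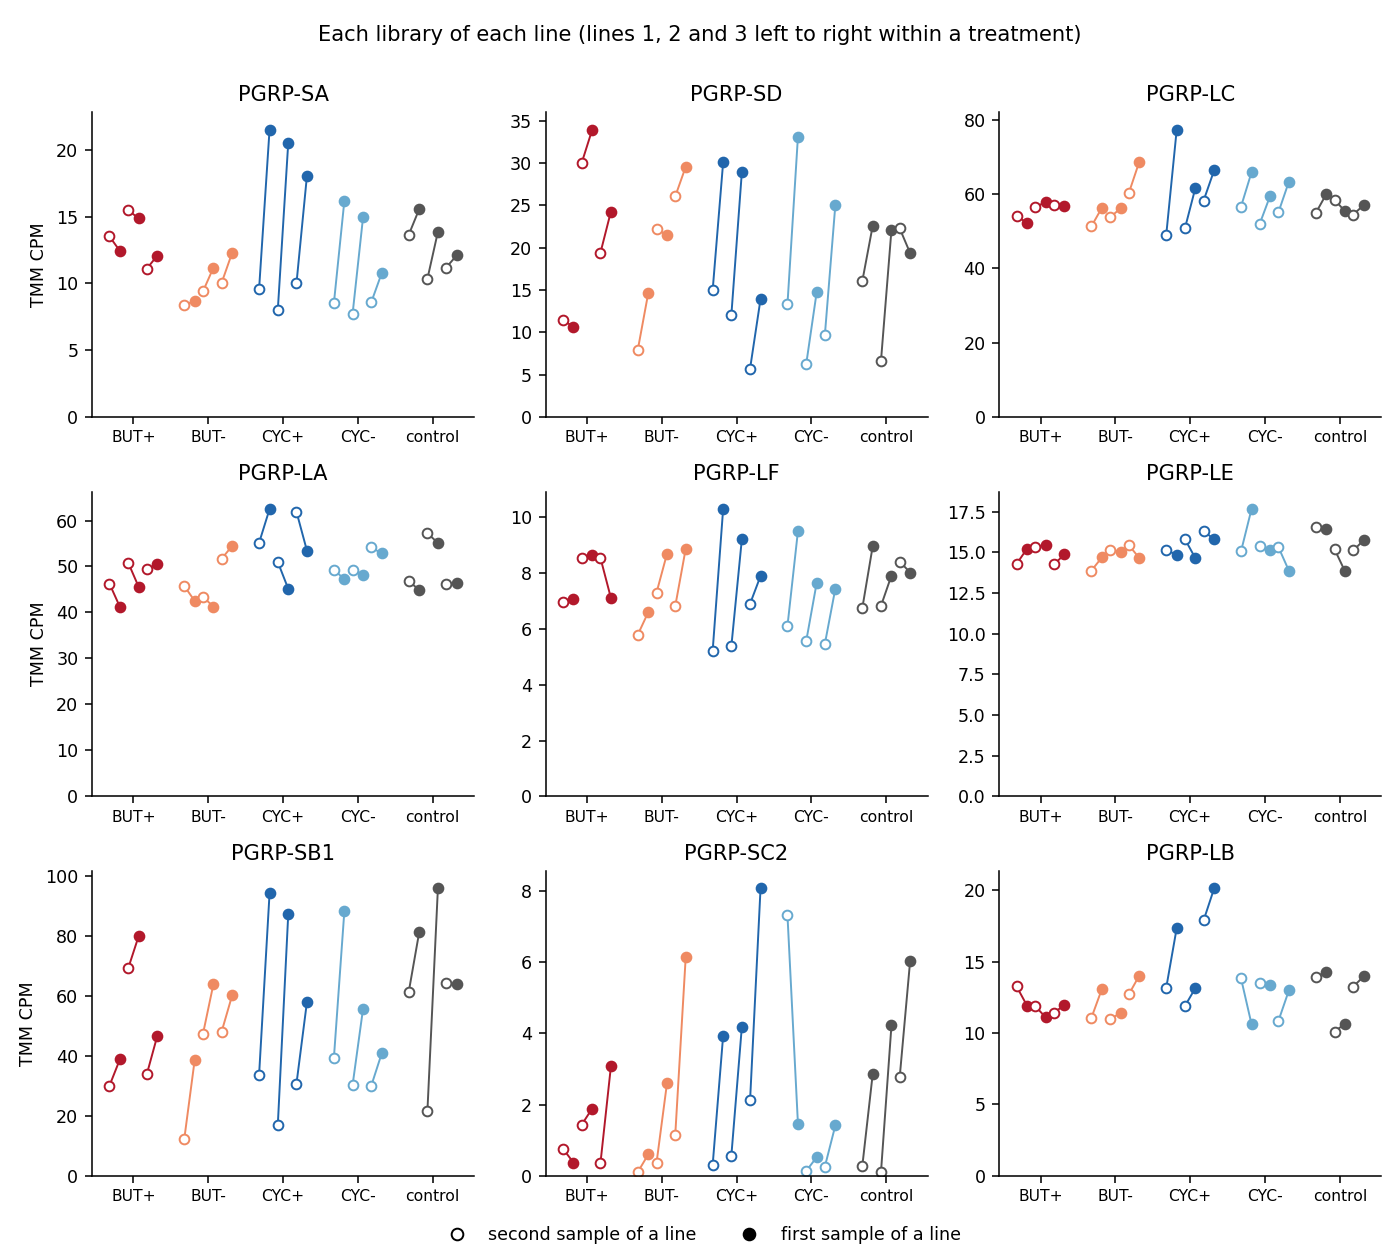
TMM CPM of each PGRP gene in each library, with the second sample of a line (open) to the left of its first sample (filled), a line joining both, and the treatments from BUT+ to control along the axis; every vertical axis starts at 0. *PGRP-LE* stays between 13.8 and 17.7 CPM in all 30 libraries, whereas *PGRP-SA* in the CYC+ lines lies between 8.002 and 10.02 CPM in second samples and between 18.1 and 21.5 CPM in first samples.

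Whether selection for attraction or repulsion went with PGRP expression was asked in 6 comparisons, 3 for each odorant. None of the 9 members was called by edgeR's quasi-likelihood test at an adjusted p under 0.1 in BUT+ *vs.* control (2.99% of tested genes called), BUT+ *vs.* BUT- (0.66%) or BUT- *vs.* control (4.7%). None was called in CYC+ *vs.* control (7.02%), CYC+ *vs.* CYC- (1.54%) or CYC- *vs.* control (3.74%) either. At an unadjusted p under 0.05 the count was 1 in CYC+ *vs.* control and 1 in CYC+ *vs.* CYC-, *PGRP-LB* in both, and 0 in the other comparisons. DESeq2 and limma (voom) also called 0 members in each of the 6.

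*PGRP-LB*, which degrades peptidoglycan and so lowers Imd signaling, came nearest. Its 6 libraries had 11.9 to 20.1 CPM (median 15.3) in CYC+, 10.6 to 13.8 CPM (median 13.2) in CYC- and 10.1 to 14.3 CPM (median 13.6) in control lines. The CYC+ level was highest in line 3, with 17.9 and 20.1 CPM, and lowest in line 2, with 11.9 and 13.2 CPM, so that the ranges overlapped. The log2 fold change was 0.30 (SE 0.11) in CYC+ *vs.* control, with an adjusted p of 0.1312 by edgeR's quasi-likelihood test. In CYC+ *vs.* CYC- it was 0.31 (SE 0.11, adjusted p = 0.1873). Without CYC+ line 2 these values became 0.43 (adjusted p = 0.02773) and 0.45 (adjusted p = 0.03551), and without CYC+ line 3 they became 0.13 (adjusted p = 0.5383) and 0.15 (adjusted p = 0.5658).

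Over all 5 treatments at once, *PGRP-LB* was the 1 member of 9 called, with an adjusted p of 0.0692 by edgeR's quasi-likelihood test, where 19.3% of tested genes were called. Line means averaged 11.9 ± 0.59 CPM in BUT+, 12.2 ± 1.10 CPM in BUT-, 15.6 ± 3.26 CPM in CYC+, 12.5 ± 0.80 CPM in CYC- and 12.7 ± 2.03 CPM in control lines (SD, n = 3 lines each). The call rested on CYC+ line 3, without which the adjusted p was 0.5607. It was also lost without BUT+ line 2 (0.1279), BUT+ line 3 (0.1194), BUT- line 2 (0.1084) or CYC+ line 1 (0.1214), and with the 2 libraries of each line summed (adjusted p = 0.3901). *PGRP-LA* had an adjusted p of 0.1698 in the same test, the next smallest, and the other 7 members had 0.2737 or more.

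*PGRP-SB1*, a bactericidal amidase that infection induces, had its highest treatment mean in the control. Its libraries had 30.0 to 79.9 CPM (median 42.8) in BUT+, 12.2 to 64.0 CPM (median 47.7) in BUT-, 16.8 to 94.2 CPM (median 45.8) in CYC+, 30.1 to 88.4 CPM (median 40.1) in CYC- and 21.6 to 95.8 CPM (median 64.1) in the control. All treatments overlapped in their libraries. The 3 line means of BUT- (25.5 to 55.6 CPM) lay below those of the control (58.7 to 71.3 CPM), where 16.3% of tested genes had separated line means. In BUT- *vs.* control its log2 fold change was -0.52 (SE 0.39), with an adjusted p of 0.5456 by edgeR's quasi-likelihood test, and an interval of 2 SE from -1.31 to 0.27.

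*PGRP-SC2*, an amidase known mainly from the gut, where it dampens Imd signaling, had the widest error. Its libraries had 0.348 to 3.07 CPM (median 1.10) in BUT+, 0.105 to 6.15 CPM (median 0.873) in BUT-, 0.300 to 8.08 CPM (median 3.03) in CYC+, 0.131 to 7.32 CPM (median 0.966) in CYC- and 0.105 to 6.05 CPM (median 2.82) in the control. Every treatment held libraries under 1 CPM. The part of midgut RNA in the values of *PGRP-SC2* was not tested. The largest of its log2 fold changes with all lines was -1.02 (SE 0.92) in BUT+ *vs.* control, with an interval of 2 SE from -2.86 to 0.82. Single lines moved its values further: without CYC- line 1 the log2 fold change was 2.51 in CYC+ *vs.* CYC- (0.76 with all lines) and -2.27 in CYC- *vs.* control (-0.53 with all lines), neither of them called.

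*PGRP-SA*, the recognition protein upstream of Toll, had positive fold changes of attraction over repulsion lines for both odorants, neither of which passed the test. Its 6 libraries had 11.1 to 15.5 CPM (median 12.98) in BUT+ against 8.42 to 12.3 CPM (median 9.73) in BUT-, and 8.002 to 21.5 CPM (median 14.1) in CYC+ against 7.73 to 16.2 CPM (median 9.70) in CYC-. In the control they had 10.35 to 15.6 CPM (median 12.9). Log2 fold changes were 0.41 (SE 0.21, adjusted p = 0.5315) in BUT+ *vs.* BUT- and 0.39 (SE 0.21, adjusted p = 0.3848) in CYC+ *vs.* CYC-, both by edgeR's quasi-likelihood test.

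The 3 line means of *PGRP-SA* did not overlap in 3 of the 6 comparisons. They lay above those of BUT- in BUT+ (11.6 to 15.2 against 8.55 to 11.2 CPM). They were above those of CYC- in CYC+ (14.1 to 15.6 against 9.70 to 12.4 CPM). In BUT- they lay below those of the control (8.55 to 11.2 against 11.6 to 14.6 CPM). CYC+ and CYC- were apart in first samples (18.1 to 21.5 against 10.8 to 16.2 CPM). Their second samples overlapped (8.002 to 10.02 against 7.73 to 8.60 CPM). BUT- was apart from BUT+ and from the control in second samples and overlapped both in first samples. How many tested genes were separated in 3 of the 6 comparisons was not counted. Over the 9 members, 1 gene had such separated line means in BUT+ *vs.* BUT-, where 13.4% of tested genes did, 1 in CYC+ *vs.* CYC- (14.6% of tested genes) and 2 in BUT- *vs.* control (16.3%), the second of these being *PGRP-SB1*. No member had separated line means in BUT+ *vs.* control, CYC+ *vs.* control or CYC- *vs.* control, where 17.3%, 18.5% and 17.0% of tested genes did. Within second samples alone, *PGRP-SA* was called in CYC- *vs.* control (log2 fold change -0.51, adjusted p = 0.07535 by edgeR's quasi-likelihood test, 3 libraries against 3), a call it did not have with both samples (-0.20, adjusted p = 0.719) or with first samples alone (0.02, adjusted p = 0.9915). In CYC+ *vs.* control its value was -0.36 in second samples alone and 0.54 in first samples alone, neither called, beside 0.19 with both.

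*PGRP-SD*, which shares in Toll and Imd recognition, had no treatment difference that approached its error. Its treatment means were 21.6 ± 10.5 CPM in BUT+, 20.3 ± 8.36 CPM in BUT-, 17.6 ± 6.83 CPM in CYC+, 17.0 ± 6.39 CPM in CYC- and 18.2 ± 3.37 CPM in the control (SD, n = 3 lines each). Lines of one treatment differed more than treatments did, with 11.1, 32.0 and 21.8 CPM in BUT+ lines 1, 2 and 3. Its log2 fold changes lay between -0.10 and 0.26, with SEs of 0.40.

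*PGRP-LC* and *PGRP-LE* had narrow limits in the comparisons of treatments with all libraries. *PGRP-LC*, the main Imd receptor, had treatment means between 55.8 and 60.6 CPM, and its log2 fold changes lay between -0.05 and 0.09 with SEs of 0.08. In CYC+ *vs.* control its value was -0.10 in second samples alone and reached 0.26 among the alternative fits, none of them called. *PGRP-LE*, the intracellular receptor, had treatment means between 14.8 and 15.5 CPM, log2 fold changes between -0.07 and 0.01 and SEs of 0.05. Among the 6 intervals of 2 SE for *PGRP-LE*, the one that reached farthest from 0 ended at -0.16, in BUT- *vs.* control. *PGRP-LF*, the inhibitor of *PGRP-LC*, had treatment means between 6.96 and 7.82 CPM and log2 fold changes between -0.17 and 0.10, with SEs of 0.15.

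*PGRP-LA*, the modulator of Imd signaling, was called in the 6 comparisons only after a line was left out. Its libraries had 45.1 to 62.5 CPM (median 54.3) in CYC+, 47.2 to 54.2 CPM (median 49.3) in CYC- and 44.9 to 57.3 CPM (median 46.6) in the control. The log2 fold change in CYC+ *vs.* control was 0.15 (SE 0.08, adjusted p = 0.2936 by edgeR's quasi-likelihood test). Without CYC+ line 2 it became 0.24 (adjusted p = 0.08371), and without control line 2 it was 0.25 (adjusted p = 0.0921).

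By direction alone, the 9 members split unevenly in some comparisons. All 9 log2 fold changes were above 0 in CYC+ *vs.* CYC-, with a median of 0.13, where 52.4% of tested genes were above 0 and their median was 0.01. *PGRP-SD*, *PGRP-SB1*, *PGRP-LC* and *PGRP-LE* had values below 0 there under at least 1 alternative each, with *PGRP-SB1* at -0.29 in second samples alone. Set against the control, 7 of 9 were below 0 in BUT- (median -0.09) and 7 of 9 in CYC- (median -0.10). Of the 9 in CYC+ *vs.* control, 5 were above 0, and in BUT+ *vs.* BUT- 6 were. The control libraries are shared by the comparisons with the control, and none of these members passed the test.

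**Figure D3:**
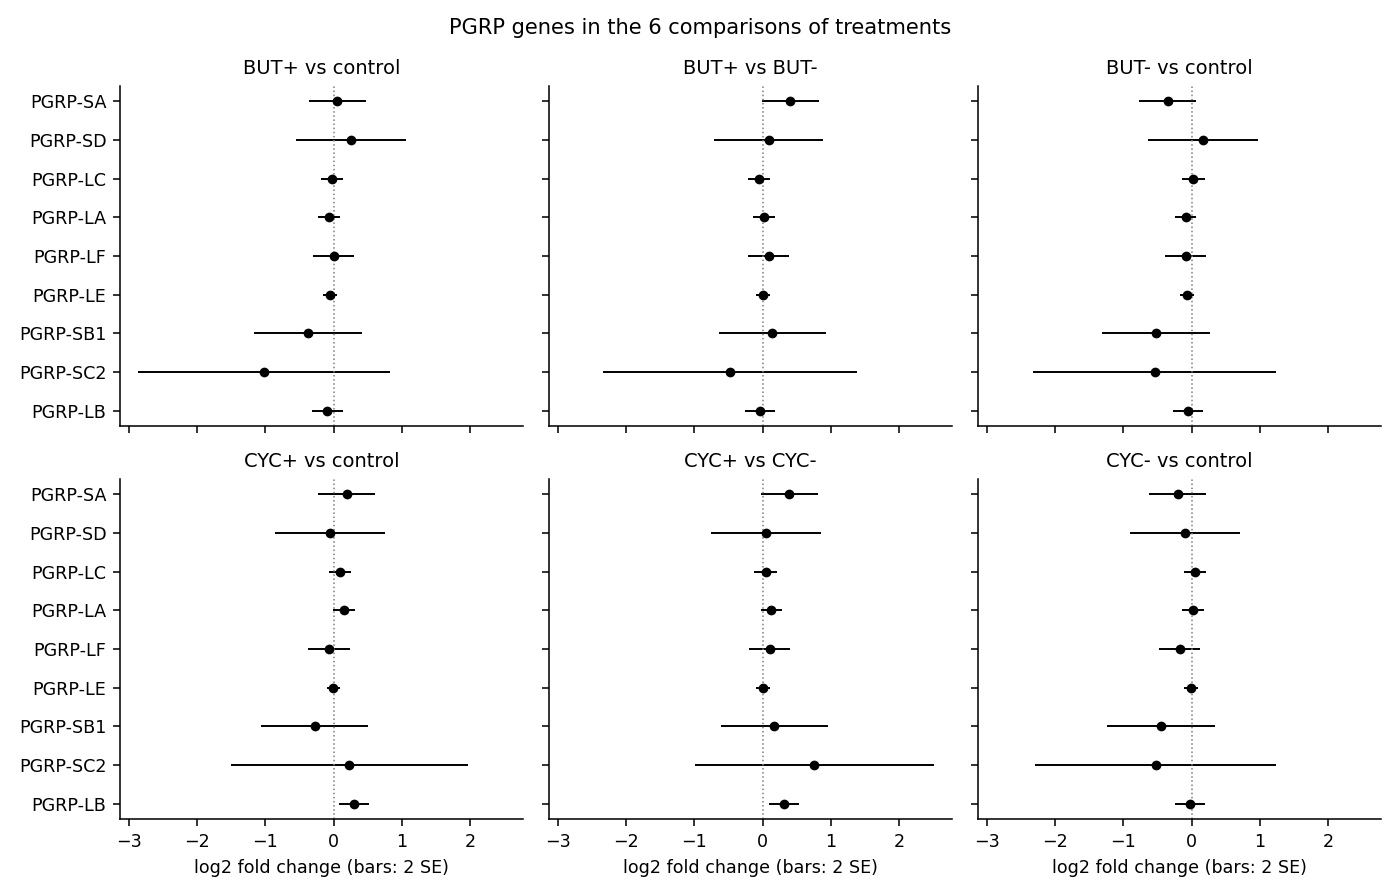
Log2 fold change (points) with 2 SE either side (bars) of each PGRP gene in the 6 comparisons of treatments, first-named treatment over second. Bars of *PGRP-LB* in CYC+ *vs.* control (0.30, SE 0.11) and CYC+ *vs.* CYC- (0.31, SE 0.11) lie above 0, no member was called after adjustment, and *PGRP-SC2* has the widest bars and *PGRP-LE* the narrowest.

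Lines within a treatment differed for 2 members when sample number was left out of the fit. With sample number as a block, *PGRP-SD* (adjusted p = 0.03314) and *PGRP-SC2* (adjusted p = 0.08547) were called as well by edgeR's quasi-likelihood test. The share of all tested genes called in that blocked fit is not given here, so its count cannot be set against it. In the fit with 15 line means alone, *PGRP-LA* (adjusted p = 0.02085) and *PGRP-LB* (adjusted p = 0.07057) were called by edgeR's quasi-likelihood test, where 7.99% of tested genes were called. *PGRP-LA* had 51.0 and 45.1 CPM in CYC+ line 2 against 55.2 and 62.5 CPM in line 1, and 57.3 and 55.1 CPM in control line 2 against 46.8 and 44.9 CPM in line 1. Both libraries of a line stood on the same side in each of these pairs. The *PGRP-LB* call was lost without CYC+ line 2 (0.2203), CYC+ line 3 (0.2724), control line 1 (0.1144) or control line 2 (0.191).

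The second samples held less of most secreted and some membrane members than the first samples of the same lines. With line as a block, 6 of 9 members were called by edgeR's quasi-likelihood test, all 6 lower in second samples, where 25.8% of tested genes were called and 13.7% were called lower. These were *PGRP-SA*, *PGRP-SD*, *PGRP-SB1*, *PGRP-SC2*, *PGRP-LC* and *PGRP-LF*. Among them, *PGRP-SC2* passed the expression filter mainly through first samples, where it was high, so its call adds no support. The remaining 3, *PGRP-LA*, *PGRP-LB* and *PGRP-LE*, were not called. DESeq2 called the same 6 members.

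*PGRP-SB1* had 12.2 to 69.2 CPM (median 33.6) in the 15 second samples and 38.7 to 95.8 CPM (median 63.9) in the 15 first samples. It was lower in the second sample in 14 of 15 lines, with a log2 fold change of -0.87 (SE 0.17, adjusted p = 0.002785 by edgeR's quasi-likelihood test). *PGRP-SD* had 5.70 to 30.0 CPM (median 13.3) in second samples and 10.6 to 34.0 CPM (median 22.6) in first samples, with a log2 fold change of -0.72 (SE 0.15, adjusted p = 0.003619). The groups overlapped for both genes, although 12 of 15 lines went the same way for *PGRP-SD*.

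*PGRP-SC2* changed most in size, with 0.105 to 7.32 CPM (median 0.364) in second samples and 0.367 to 8.08 CPM (median 2.87) in first samples. Most of the 17 libraries in which it reached 1 CPM were first samples, so it entered this test through the samples where it was high. Its log2 fold change was -1.85 (SE 0.42, adjusted p = 0.005856 by edgeR's quasi-likelihood test), and 13 of 15 lines were lower in the second sample. The exceptions were BUT+ line 1, with 0.757 CPM in the second sample and 0.367 CPM in the first, and CYC- line 1, with 7.32 CPM in the second and 1.45 CPM in the first.

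*PGRP-SA* had 7.73 to 15.5 CPM (median 10.02) in second samples and 8.68 to 21.5 CPM (median 13.9) in first samples, a log2 fold change of -0.46 (SE 0.11, adjusted p = 0.007862 by edgeR's quasi-likelihood test). *PGRP-LF* had 5.22 to 8.55 CPM (median 6.82) in second samples and 6.61 to 10.3 CPM (median 8.03) in first samples, a change of -0.31 (SE 0.08, adjusted p = 0.01031). *PGRP-LC* changed least of the called members, by -0.15 (SE 0.04, adjusted p = 0.02297), with medians of 55.0 CPM in second and 59.6 CPM in first samples. *PGRP-SA* and *PGRP-LF* were lower in the second sample in 13 of 15 lines each and *PGRP-LC* in 12. Among tested genes, 12.2% were lower in at least 12 of 15 lines, 7.33% in at least 13 and 3.29% in at least 14.

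The uncalled members had narrow intervals around 0. The log2 fold change of second over first samples was 0.06 (SE 0.03) for *PGRP-LA*, -0.07 (SE 0.05) for *PGRP-LB* and 0.00 (SE 0.03) for *PGRP-LE*. Their intervals of 2 SE were -0.002 to 0.11, -0.16 to 0.02 and -0.06 to 0.06. Over all 9 members the median was -0.31, and over all tested genes it was 0.01.

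**Figure D4:**
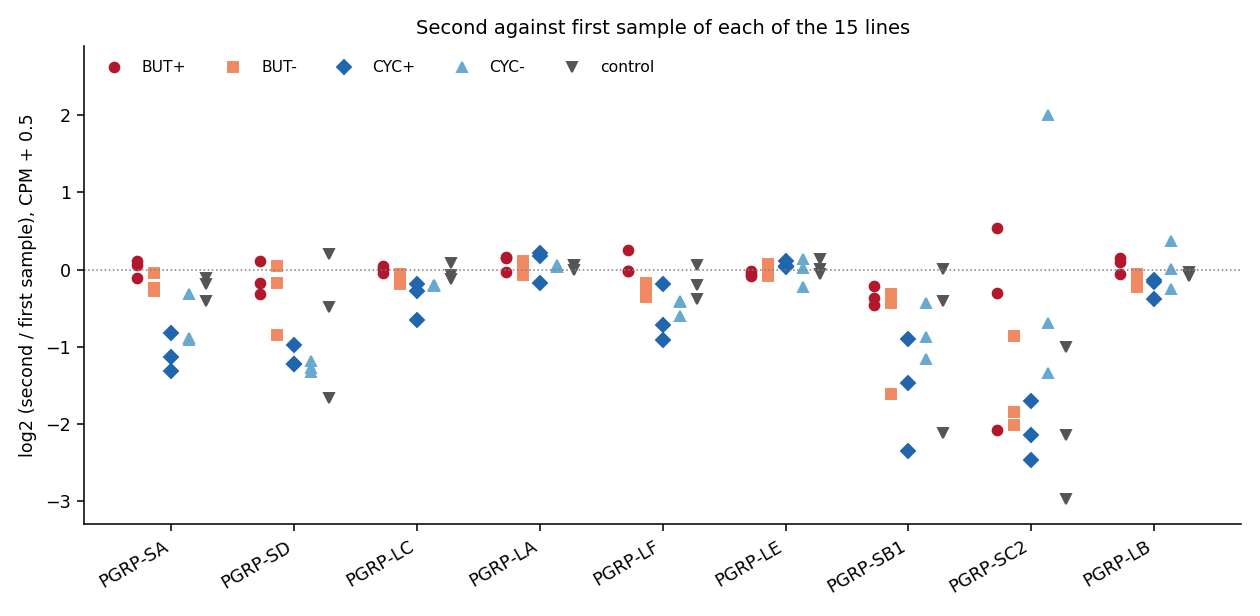
Log2 ratio of second over first sample of each of the 15 lines, from TMM CPM plus 0.5, for each PGRP gene, with symbols and colors by treatment. The 3 CYC+ lines lie between -1.31 and -0.82 for *PGRP-SA* and the 3 BUT+ lines between -0.12 and 0.12, and the values of *PGRP-LB* lie between -0.384 and 0.364.

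The same difference was tested within single treatments. Within CYC+, 7 of 9 members were called lower in second samples (15.4% of tested genes called lower), all but *PGRP-LA* and *PGRP-LE*. The 7 include *PGRP-SC2*, which passed the filter mainly through first samples. Within CYC- 4 of 9 were called lower (12.2% of tested genes), namely *PGRP-SA*, *PGRP-SD*, *PGRP-LC* and *PGRP-LF*. No member was called by edgeR's quasi-likelihood test within BUT+, BUT- or control, where 0.0%, 0.379% and 0.0108% of tested genes were called. At an unadjusted p under 0.05 those counts were 0, 3 and 3 members. No other tool was run within single treatments. Sizes did not follow the calls for every member. *PGRP-SC2* had -2.60 (SE 0.71) within CYC+, 0.33 (SE 0.85) within CYC-, -2.55 (SE 0.86) within BUT- and -2.46 (SE 0.76) within control, and *PGRP-SB1* had -0.83 (SE 0.34) within CYC- and -0.82 (SE 0.35) within control.

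*PGRP-SA* differed between samples in both CYC treatments. In CYC+ lines 1, 2 and 3 its second samples had 9.59, 8.002 and 10.02 CPM and its first samples 21.5, 20.6 and 18.1 CPM. In the CYC- lines the second samples had 8.53, 7.73 and 8.603 CPM and the first samples 16.2, 14.98 and 10.8 CPM. Second and first samples did not overlap in either treatment. In the BUT+ lines the second samples had 13.5, 15.5 and 11.1 CPM and the first samples 12.4, 14.9 and 12.1 CPM, which overlapped. Second over first, the log2 fold change was -1.12 (SE 0.12) within CYC+, -0.74 (SE 0.12) within CYC-, 0.02 (SE 0.12) within BUT+, -0.20 (SE 0.12) within BUT- and -0.24 (SE 0.12) within control.

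A test of whether the sample difference itself varied with treatment, added after the data were seen, called *PGRP-SA* among the 9 members (adjusted p = 0.005341 by edgeR's quasi-likelihood test), where 5.62% of tested genes were called. *PGRP-LF* (0.1368), *PGRP-SD* (0.1559) and *PGRP-LC* (0.1815) were not called. *PGRP-SD* was called without BUT- line 1 (0.09874), control line 2 (0.008569) or control line 3 (0.04038), and *PGRP-LC* (0.07906) and *PGRP-LF* (0.01553) were called without CYC+ line 3. Without the 6 CYC lines, *PGRP-SC2*, which passed the filter mainly through first samples, was the 1 member still called lower in second samples. *PGRP-SA* then had a log2 fold change of -0.14 (adjusted p = 0.2833) and *PGRP-SB1* one of -0.64 (adjusted p = 0.1462).

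Fat body markers moved with the sample number as well. All 7 markers together summed to 20520 to 88130 CPM (median 47010) in second samples and 30180 to 107400 CPM (median 73290) in first samples, with none of the 7 at 0 throughout. The yolk protein genes *Yp1* and *Yp3* were lower in the second sample in 15 of 15 lines, and the larval serum protein gene *Lsp2* in 14. In CYC- lines the sum was 22180 to 31990 CPM in second and 65800 to 73290 CPM in first samples, in CYC+ lines 20520 to 35890 CPM and 30180 to 44590 CPM, in BUT+ lines 81520 to 88130 CPM and 90170 to 107400 CPM, in BUT- lines 30540 to 81050 CPM and 71040 to 99370 CPM, and in control lines 47010 to 50630 CPM and 53870 to 81210 CPM. Second and first samples overlapped in this sum in CYC+ and BUT- and were apart in CYC-, BUT+ and control. Hemocyte markers summed to 519 to 817 CPM in second samples and 478 to 821 CPM in first samples. Over all lines the 5 tested ones had values below 0, of which *NimC1* (-0.08), *eater* (-0.14) and *crq* (-0.10) were called (13.7% of tested genes called lower). Within CYC+ 3 of these 5 were above 0 (median 0.07), whereas within CYC- all 5 were below 0 (median -0.24). Total counts had a median of 35029659 in second samples and 27846591 in first samples, with the second sample deeper in 9 of 15 lines. The part of fat body RNA, hemocyte RNA and depth in the PGRP differences was not tested.

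Antimicrobial peptide genes, which lie downstream of the receptors, were called in part. Of 14 antimicrobial peptide genes, 11 were tested and 5 of them were called, all lower in second samples, where 13.7% of tested genes were called lower, and the median log2 fold change of the 11 was -0.83 against 0.01 over all tested genes. The called ones were *Def* (-1.52, SE 0.28), *DptB* (-1.18, SE 0.34), *Dro* (-1.07, SE 0.40), *Mtk* (-0.91, SE 0.26) and *AttC* (-0.83, SE 0.31). Within CYC+ lines 10 of the 11 were called lower (15.4% of tested genes). Within CYC- lines, where 4 PGRP members were called lower, 1 of the 11 was, 9 had values above 0 and the median was 0.87.

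Of 17 Toll pathway genes, 8 were called, all lower in second samples, where 25.8% of tested genes were called and 13.7% called lower. The smallest adjusted p-values were those of *GNBP3* (-0.32, adjusted p = 0.002442 by edgeR's quasi-likelihood test), a recognition protein for fungal glucan, of the serine protease genes *modSP* (-0.38), *Hayan* (-0.29) and *psh* (-0.23), and of the serpin gene *nec* (-0.16). Of 21 Imd pathway genes tested, 4 were called lower, *imd*, *IKKbeta*, *Rel* and *Charon*, and 1 higher, *Fadd*, a share near that of all tested genes. The largest of these changes was -0.19 (SE 0.08) for *Charon*. Within CYC+ lines 7 of the 21 were called lower, among them *Charon* (-0.72, SE 0.09) and *Rel* (-0.42, SE 0.11), and *Charon* was called in the test of sample difference by treatment (adjusted p = 0.008383 by edgeR's quasi-likelihood test).

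The same lists held 0 to 3 calls each in the 6 comparisons of treatments, where 0.66% to 7.02% of tested genes were called. In BUT- *vs.* control (4.7% of tested genes called), the peptide genes *CecA1* (-3.06, SE 0.94), *DptA* (-2.63, SE 0.80) and *DptB* (-2.06, SE 0.67) were called lower. Their adjusted p-values by edgeR's quasi-likelihood test were 0.07901, 0.07878 and 0.09901, not far under the threshold of 0.1. All 11 tested peptide genes had values below 0, with a median of -1.26. In the other 5 comparisons the medians of the peptide genes ranged from -0.81 in BUT+ *vs.* control to 0.96 in CYC+ *vs.* CYC-. In the joint test over all 5 treatments 6 of the 11 were called, *AttA*, *AttB*, *AttC*, *CecA1*, *DptA* and *DptB*, beside 6 of 21 Imd pathway genes, 5 of 17 Toll pathway genes and 1 of the 9 PGRP members, where 19.3% of tested genes were called. The lists were not tested against each other.

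Among Imd pathway genes, *ben*, a ubiquitin-conjugating enzyme of the pathway, was lower in BUT+ (-0.14, SE 0.03), BUT- (-0.13, SE 0.03) and CYC+ (-0.09, SE 0.03) *vs.* control, comparisons that share the control libraries. The caspase gene *Dredd* was lower in BUT- *vs.* control (-0.26, SE 0.08) and the ubiquitin ligase gene *Diap2* higher in CYC+ *vs.* control (0.17, SE 0.06). Among Toll pathway genes, the NF-kB factor genes *dl* and *Dif* were called, *dl* higher in BUT+ *vs.* control (0.23, SE 0.07) and *Dif* lower in BUT- (-0.18, SE 0.06) and CYC- (-0.18, SE 0.06) *vs.* control. *GNBP1*, the partner of *PGRP-SA* in recognition, was lower in CYC+ *vs.* control (-0.25, SE 0.08), as was *GNBP3* (-0.41, SE 0.13). In that comparison, where 7.02% of tested genes were called, 4 of 5 tested hemocyte markers were called lower as well. These were *Hml* (-0.67), *eater* (-0.65), *Pxn* (-0.32) and *NimC1* (-0.28). Of 6 tested fat body markers, *Yp1* (-0.88) and *Yp2* (-0.91) were called lower, and all 6 had values below 0. Of 6 tested midgut markers, *Jon65Aiii* (-3.42, SE 1.14) and *Amy-p* (-2.51, SE 0.72) were called lower, and all 6 had values below 0. The part of hemocyte, fat body and midgut RNA in the values of CYC+ *vs.* control was not tested.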

How the data were processed

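RNA from 30 pools of 100 female heads was sequenced as 100 bp reads. The authors took off adapters (Trim Galore!), used Cutadapt to trim bases under Phred 20 and to drop reads under 30 bp, aligned to genome version 6.10 with STAR, and deposited read counts per gene as whole numbers, without normalization. The counting tool, its use of strand and its treatment of multi-mapping reads are not given in the sources used here. Groups, line numbers and sample numbers came from the sample labels, and the study describes the 2 samples of a line as independent biological samples.

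Counts were tested with edgeR 4.0.16 (R 4.3.3) by the quasi-likelihood test after TMM normalization, on the 9240 genes that reached 1 CPM in 15 or more libraries, the study's stated rule, which passed another number of genes there. All 30 libraries entered a fit with 5 treatment means and lines pooled, as in the study's methods. A gene was called when its Benjamini-Hochberg adjusted p, taken over all tested genes, was under 0.1. Pooling counts the 2 samples of a line as separate samples, while selection acted on 3 lines per treatment. Further fits used 15 line means, alone or with sample number. The SE was derived from the fold change and the F statistic (log2 fold change over root F), and intervals are 2 SE either side. Line means are of TMM CPM, and lengths are merged exons of an annotation of release 6, which placed 17242 genes. Likeness is Pearson's r of log2(CPM + 0.5) over line means. Alternatives used DESeq2 1.42.0, limma 3.58.1, other scalings, filters and samples, and each line left out. The fits were run on simulated counts with planted changes. For the comparison of treatments these counts held no differences between lines, so the pooling of lines was not tested. Python 3.11.15 made the tables and plots.

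The 9 members, the pathway and marker lists and the tests were chosen with earlier results of these data known. All 9 members are named with values, and of each list up to 5 called genes per comparison with the smallest adjusted p. The other genes with a PGRP- symbol are given by level, and for each member the 3 genes with the highest likeness are named. A few listed genes are not analysed here. Depth of 21194086 to 38621924 counts per library sets the precision: the member with fewest reads, *PGRP-SC2*, had as few as 3 in a library.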

Additional observations from a re-analysis of the deposited data

Results flagged for a closer look

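*PGRP-SC2* in the second sample of CYC- line 1 stood apart from the other CYC- libraries. It had 7.32 CPM, from 278 reads, against 1.45 CPM in the first sample of the same line and 0.131 to 1.41 CPM in the other 4 CYC- libraries. In each of 45 sets of 6 libraries (9 members in 5 treatments) the gap of the farthest library was compared with the range of the set, and this was the 1 set past the limit. Chance alone passes about 1 set in 20.

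The difference of *PGRP-SA* between second and first samples varied with treatment, with an adjusted p of 0.005341 by edgeR's quasi-likelihood test of the interaction, which was chosen after the data were seen. The log2 fold change was -1.12 within CYC+ and 0.02 within BUT+, the treatments farthest apart. *PGRP-SA* was lower in the second sample in 3 of 3 CYC+ lines, 3 of 3 CYC- lines, 3 of 3 BUT- lines, 3 of 3 control lines and 1 of 3 BUT+ lines.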

How the results depend on the processing

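Of 235 alternative counts of called members, 207 stayed within 1.5 times the reported count. Of 2108 values of single members, 2066 stayed called or stayed uncalled. Counts that stayed at 0 are among the 207, and the reported count was 0 in all 6 comparisons of treatments. The joint call of *PGRP-LB* over all 5 treatments held in 14 of 24 alternatives. Signs changed in 84 of the single values, none of them called before or after. In the comparisons of BUT treatments with each other and with the control, every alternative gave 0 called members. Leaving out 1 line at a time gave 0 to 2 called members in CYC+ *vs.* control, 0 to 1 in CYC+ *vs.* CYC-, 0 to 2 over all 5 treatments, 1 to 2 between lines, 6 to 7 in second *vs.* first samples and 1 to 3 in the test of sample difference by treatment. The seventh member was *PGRP-LA* without CYC+ line 1 (adjusted p = 0.0545 by edgeR) and *PGRP-LB* without CYC- line 1 (0.09451).

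The joint call of *PGRP-LB* was also lost at a threshold of 0.05, with limma voom and line as a random block (adjusted p = 0.2021), with first samples alone (0.2586) and with second samples alone (0.6795). The joint count was 0 under the first 2 of these and with the libraries of each line summed. It stayed at 1 in first samples and in second samples, where *PGRP-SA* was called instead (0.09111 and 0.0376). The call between lines fell to 1 member at 0.05. Second samples alone gave 1 member in CYC- *vs.* control, *PGRP-SA*, and *PGRP-SC2* was below the filter there. Without a filter, the sample difference by treatment called 2 members, *PGRP-SD* (0.07008) being added.

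Without the CYC lines, which was chosen after the data were seen, 1 member remained in second *vs.* first samples, *PGRP-SC2* (-2.05, adjusted p = 0.03985 by edgeR). With only the CYC lines there were 5, and *PGRP-SC2* (-1.50, adjusted p = 0.146) was the one lost. Fewer libraries enter both fits, and *PGRP-SC2* passed the filter mainly through first samples.

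Line numbers did not pair the lines of different treatments: deviations of same-numbered lines had a mean correlation of -0.05 across genes, which are not independent replicates, and 3 of 30 pairs were over 0.1. With line and sample number as a replicate block, CYC+ *vs.* control had 1 called member, *PGRP-LB* (0.29, adjusted p = 0.08166 by edgeR). With sample number as a block, 4 members were called between lines, *PGRP-SD* (0.03314) and *PGRP-SC2* (0.08547) being added. Shares of all tested genes called under these blocks are not given here. With no replicate block for line, 6 were called in second *vs.* first samples. The block changed no other count of calls by over 1.5 times. Depth limits *PGRP-SC2* first, and its SE in the treatment comparisons was 0.87 or more. The cause of these changes was not tested.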

Other observations

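The other 4 PGRP genes were near the floor of detection in heads. *PGRP-LD* had 0.0811 to 0.570 CPM per library, and most of its exons overlap other genes. *PGRP-SB2*, next to *PGRP-SB1*, had 0 to 17 reads per library, *PGRP-SC1b* 0 to 4 and *PGRP-SC1a* 0 to 2, and none of the 4 reached the expression filter. Treatment means of *PGRP-SB2* were 0.0897 ± 0.0957 CPM in BUT+, 0.0548 ± 0.0214 CPM in BUT-, 0.0718 ± 0.0471 CPM in CYC+, 0.145 ± 0.0352 CPM in CYC- and 0.343 ± 0.139 CPM in the control (SD, n = 3 lines each). In the fit of 15895 genes without a filter, edgeR's quasi-likelihood test called *PGRP-SB2* lower in BUT- *vs.* control (-2.54, SE 0.60, adjusted p = 0.03176, with 2.45% of genes called), lower in CYC+ *vs.* control (-2.18, SE 0.58, adjusted p = 0.04801, 4.11%) and over all 5 treatments (adjusted p = 0.02238, 10.5%), where *PGRP-LD* was called too (adjusted p = 0.06899). The neighbor *PGRP-SB1* also had its highest treatment mean in the control, at 64.7 CPM. *PGRP-SC2*, at 2.18 CPM on average, was the abundant gene of the SC cluster, with 1972 reads over all libraries against 29 of *PGRP-SC1b* and 6 of *PGRP-SC1a*.

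Some members were alike over the 15 line means, as a description only, since the points share libraries and treatments. *PGRP-SB1* and *PGRP-LF* had r = 0.84, and each was among the 3 genes most like the other. The neighbors *PGRP-LA* and *PGRP-LC* had r = 0.76, and *PGRP-LC* and *PGRP-LF*, which are also adjacent, had 0.28. In the difference between second and first sample of a line, *PGRP-LC* and *PGRP-LF* had r = 0.835 and *PGRP-SA* and *PGRP-LF* 0.796 (n = 15 lines).

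Outside the family, the genes most like *PGRP-SA* over the line means were *Cyp4p2* (r = 0.92), *Vamp7* and *ced-6* (0.90 each). For *PGRP-SD* they were *Urm1* (0.81), *CG6805* (0.80) and *Acph-1* (0.78). For *PGRP-SB1* they were *Nepl12* (0.87) and *RpS3A* (0.83), and for *PGRP-SC2* *Eogt*, *CG30456* and *CG14207* (0.80 each). *PGRP-LA* was most like *CG10435* (0.87), *Tasp1* and *TfIIA-S* (0.82 each), and *PGRP-LB* most like *Ada3* (0.85), *CG13126* (0.83) and *CG3165* (0.82). The values for *PGRP-LC* were 0.82 with *Irbp*, 0.79 with *SerRS-m* and 0.78 with *pie*. For *PGRP-LE* they were 0.84 with *CG10337*, 0.82 with *Rrp47* and 0.81 with *CG31800*, and for *PGRP-LF* 0.84 with *ZnT41F* and 0.82 with *CG5783*. With 15 points and 9240 genes, values of this size are found for every member.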
